A study of Mus musculus with 2 samples.

Results

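Notch signalling genes were compared between newborn mouse skin without Pla2g4e and wild-type newborn skin. The set holds 10 genes. They are the receptors Notch1, Notch2 and Notch3, the ligands Jag1, Jag2, Dll1 and Dll4, and the targets Hes1, Hes5 and Hey1. Members were taken by the gene name that the arrays give to probes outside the controls, which found 12 probes for these 10 of the 24288 genes named on the arrays. Probes of 8 members numbered 1 each, and Notch1 and Notch2 had 2 each. All 12 probes were well above background on both arrays, so that all 10 members belong to the 19397 genes measured in both pools.

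The RNA came from skin of Pla2g4e-/- mice and of Pla2g4e+/+ mice, both of the strain C57BL/6N and taken on postnatal day 0. Each genotype was read on 1 single-colour Agilent array that carried a pool made from the skin RNA of 5 animals. The enzyme missing from the knockout, Pla2g4e, is a cytosolic phospholipase A2 and makes precursors of N-acylethanolamines; its role in psoriatic inflammation is the study's question. With 1 pool per genotype no difference has a replicate check, and p-values cannot be had.

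Differences are on the log2 scale, knockout minus wild type, after each array was scaled to the 75th percentile of its probes. Signals quoted in brightness units are unscaled, and those of different probes are not comparable with each other. The error beside a difference is that of the scanner software's error model (1 SD), which covers the spots and leaves out the animals. The size used for counting was 1.5-fold.

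Among all 19397 measured genes, 4.50% lay 1.5-fold or more below wild type in the knockout pool and 6.74% lay 1.5-fold or more above. Their median was 0.01 log2, with 95% of them between -0.76 and 0.95. Pla2g4e itself stood at 51.4% of its wild-type level by its brighter probe, and its dim second probe, at 118% of the wild-type level, cleared the background only on the knockout array. The sources used here do not say which part of the gene was removed, and a probe outside that part checks nothing. The epidermal keratin Krt10, picked as a mark of skin, read 241231 in the knockout pool and 232907 in the wild-type pool. Of the pools, only the wild-type one gave signal well above background for the 4 Y-linked genes looked up, and Xist was 3.87-fold higher in the knockout pool. Genotype and the sex of the pooled animals cannot be told apart in any value that follows; none of the member probes lies on X or Y. Both arrays were 1 position each of a single slide, so position and genotype cannot be told apart either.

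Notch receptors span the membrane and bind Jagged and Delta-like ligands on neighbouring cells. Binding leads to cleavage by Adam proteases and γ-secretase, and the freed intracellular part joins the DNA-binding protein RBPJ to switch on target genes such as the Hes and Hey repressors. In skin the pathway is known for its part in the switch from basal to suprabasal keratinocytes and in the differentiation of hair follicle cells, and it also acts in blood vessels.

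One member stood far from the rest. Hes5 was 4.23-fold lower in the knockout pool, Hes1 was 1.45-fold lower, and the other 8 members lay within 1.21-fold of the wild type in either direction. The sequences shown first are those on which these values rest, the leading 30 of the 60 bases of the Hes5 and Hes1 probes and of both Notch1 probes, which differed in sign. They are printed 5′ to 3′ as the array files give them, and no base is marked.
Hes5 probe: acgatgatccttaaaggattcctttgtatg
Hes1 probe: ttaaaatatcttcctttggggaagtttatt
Notch1 brighter probe: tcctgcagtggagggggccttgagacaggc
Notch1 dimmer probe: ttgcttctttccaaaatcgaaaagaaagaa

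The Hes5 probe lies at mm9 chr4:154336347-154336406 on the plus strand and was designed to NM_010419. The Hes1 probe lies at mm9 chr16:30067820-30067879 on the plus strand and was designed to NM_008235. Both Notch1 probes were designed to NM_008714 and lie on the minus strand, the brighter at mm9 chr2:26319440-26319499 and the dimmer at mm9 chr2:26314630-26314689. The other probes are those of Notch2 (chr3:97953914-97953973 and, dimmer, chr3:97951233-97951292, plus strand), Notch3 (chr17:32257848-32257907, minus), Jag1 (chr2:136907433-136907492, minus) and Jag2 (chr12:114146887-114146946, minus). Those of Dll1 (chr17:15504623-15504682, minus), Dll4 (chr2:119160779-119160838, plus) and Hey1 (chr3:8663432-8663491, minus) complete the set. No annotation of the build mm9 was used here, so exons and untranslated regions are not assigned.

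The upstream sequence of Hes5 is shown because Notch targets are read through RBPJ, whose core motif GTGGGAA can be looked for by its letters. Read from the opposite strand, the same motif is TTCCCAC. Windows are the 250 bases before the start of the gene in RefSeq's GRCm38.p6, and capitals mark the motif on either strand. The Hes5 window holds it on both strands, starting 226 and 83 bases before the start. Hey2 and Hes7, related factors with 1 match each, are shown for comparison and were picked for that match. The windows of Hes6, Nrarp, Dtx1 and Notch4, searched in the same way, held 0 copies.
Hes5, chr4:154960673-154960922, plus strand: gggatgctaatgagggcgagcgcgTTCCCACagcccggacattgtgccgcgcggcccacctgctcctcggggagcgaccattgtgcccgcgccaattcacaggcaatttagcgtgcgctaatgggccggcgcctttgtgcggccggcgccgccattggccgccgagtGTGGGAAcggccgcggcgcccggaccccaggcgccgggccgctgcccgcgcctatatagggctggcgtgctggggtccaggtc
Hey2, chr10:30842784-30843033, minus strand: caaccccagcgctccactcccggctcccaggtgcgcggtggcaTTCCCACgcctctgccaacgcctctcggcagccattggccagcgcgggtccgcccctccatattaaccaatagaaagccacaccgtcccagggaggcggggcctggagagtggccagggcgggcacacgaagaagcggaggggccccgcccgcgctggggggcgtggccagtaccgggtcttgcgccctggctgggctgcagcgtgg
Hes7, chr11:69120203-69120452, plus strand: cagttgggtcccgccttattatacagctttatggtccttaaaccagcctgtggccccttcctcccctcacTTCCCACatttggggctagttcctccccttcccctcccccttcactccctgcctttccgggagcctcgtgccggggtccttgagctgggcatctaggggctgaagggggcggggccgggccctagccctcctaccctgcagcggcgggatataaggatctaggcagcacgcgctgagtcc

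Of the members, 8 matched the promoter table with 9 windows, those of the 3 receptors, the 4 ligands and Hes5; Hes1 and Hey1 were not matched, and neither was Heyl. Hes5 was thus the 1 target searched, and the receptor and ligand windows held 0 copies. Among all 32851 windows, 5.42% held at least 1 copy and 0.161% at least 2. A match in letters is no site of binding, and a window without it says nothing about RBPJ.

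**Figure D1:**
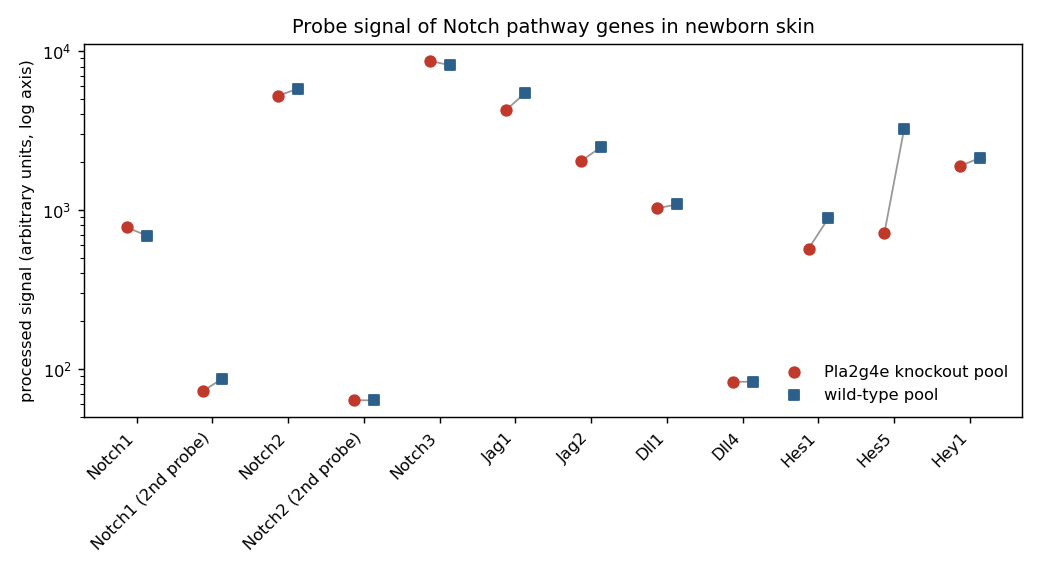
Unscaled processed signal (log axis, arbitrary brightness units) of each member probe in the knockout pool (red circles) and the wild-type pool (blue squares), 1 array each, with Dll1 as the mean of 10 spots. The line of Hes5 is the steepest, with 715 in the knockout pool against 3222 in the wild-type pool; heights of different probes are not comparable.

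Among the ligands, which sit on the signalling cell, both Jagged genes were slightly lower and both Delta-like genes were level. Jag1, the ligand linked to hair follicle and suprabasal epidermis, read 4238 in the knockout pool and 5465 in the wild-type pool. That is a difference of -0.28 ± 0.20 log2. Jag2, a second Jagged ligand found in basal epidermis, read 2039 in the knockout pool and 2494 in the wild-type pool, a difference of -0.20 ± 0.20. Neither is past 1.5-fold; the Jag1 difference is 1.35 times its scanner error and that of Jag2 is 0.98 times its own. Dll4, a ligand of arterial endothelium, was dim at 82.9 in the knockout pool and 83.1 in the wild-type pool, a difference of 0.09 ± 0.21.

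Dll1, the Delta ligand of clustered basal keratinocytes in human skin, was printed as 10 spots and so shows the error within an array directly. Its spots ran from 958 to 1121 with a median of 1018 in the knockout pool, and from 1006 to 1190 with a median of 1094 in the wild-type pool. The spot ranges of the pools overlap. After scaling, 6 spots were above 0 and 4 below, with a mean of 0.01 log2 and an SD of 0.053 over spots of the same 2 pools. The same SD had a median of 0.041 over the 378 probes with at least 8 usable spots, well under the scanner error of 0.20, most of which is a fixed multiplicative term of 0.1 per array in the scanner settings.

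The receptors differed by less than 1.5-fold, and the direction of Notch1 depended on its probe. Notch1, the main receptor of keratinocytes, read 779 in the knockout pool and 691 in the wild-type pool by its brighter probe, a difference of 0.26 ± 0.20. Its dimmer probe read 72.2 in the knockout pool and 87.0 in the wild-type pool, a difference of -0.18 ± 0.21. No direction can be given for this receptor, since the probes lie on opposite sides of 0 and their mean was 0.04. Notch2, which is expressed beside Notch1 in epidermis and follicle, read 5239 in the knockout pool and 5822 in the wild-type pool, a difference of -0.06 ± 0.20. Its dimmer probe gave 0.10 ± 0.23, again with the other sign. Notch3, the receptor of vascular smooth muscle that epidermis also expresses, read 8680 in the knockout pool and 8174 in the wild-type pool, a difference of 0.18 ± 0.20.

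**Figure D2:**
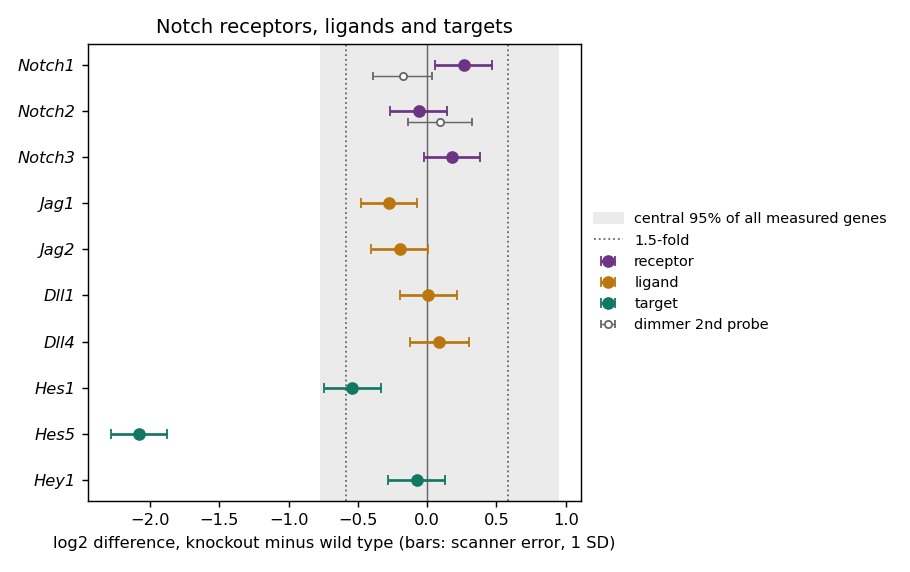
Log2 difference of each member, knockout minus wild type, with bars of 1 SD from the scanner's error model; open points are the dimmer probes of Notch1 and Notch2. Dotted lines mark 1.5-fold, and the grey band holds the central 95% of measured genes, from -0.76 to 0.95. Hes5, at -2.08, is the 1 member outside the band.

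All 3 targets were below 0, to very different degrees. Hes5, a basic helix-loop-helix repressor that Notch induces, read 715 in the knockout pool, against 3222 in the wild-type pool. Its difference was -2.08 ± 0.20 log2, which is 10.2 times the scanner error and leaves 23.7% of the wild-type level. Of all measured genes, 31 (0.16%) had a lower difference. Hes1, the related repressor that is the usual Notch target of suprabasal keratinocytes, read 572 in the knockout pool, against 886 in the wild-type pool. Its difference was -0.54 ± 0.20, or 68.8% of the wild-type level, just inside the 1.5-fold size, and 5.19% of measured genes were lower. Hey1, the target that also serves blood vessels and bone, read 1895 in the knockout pool and 2127 in the wild-type pool, a difference of -0.08 ± 0.20. The targets thus ranged from a difference within the scanner error to one of the lowest on the arrays.

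Counted over the set, Hes5 was the 1 of 10 members lower by 1.5-fold or more and 0 were higher by that size, beside 4.50% and 6.74% of all measured genes. At 2-fold the counts were again 1 lower and 0 higher, beside 1.44% and 2.23% of all genes. Hes1 and Hes5 were the 2 members whose difference was more than 2 times the scanner error. The share of all measured genes past that multiple was not counted. Genes outside the members passed it too, among them Neurl1a at 0.57 ± 0.20, Ivl at 0.63 ± 0.20 and Ccnd1 at -0.48 ± 0.20. Passing it therefore does not set a member apart. The median of the members was -0.07 log2, against 0.01 for all genes. By role it was 0.18 for the receptors, -0.10 for the ligands and -0.54 for the targets. Without Hes5 the other 9 ran from -0.54 to 0.26 with a median of -0.06. As a set the members therefore lay near the middle of the arrays, and the count rests on 1 gene read by 1 spot.

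The factors Hes2, Heyl and Hey2 were lower too, by 1.52-fold to 1.83-fold, while Hes6 and Hes7 were level. This grouping with the members was made after their values were seen. Of 10 such factors on the arrays, 8 were measured, and Hes3 and Helt were not well above background in either pool. Lower by 1.5-fold or more were 4 of the 8, Hes5 among them, and 0 were higher by that size, beside 4.50% and 6.74% of all measured genes. Their median was -0.57, and with normexp background correction 3 of the 8 were lower by that size. Heyl, a Hey factor of vascular smooth muscle, read 2202 in the knockout pool, against 3862 in the wild-type pool, a difference of -0.72 ± 0.20. Hes2, a less studied member of the Hes family, read 269 in the knockout pool, against 525 in the wild-type pool, a difference of -0.87 ± 0.20. Hey2, a factor of heart and arteries, was dim at 70.0 in the knockout pool, against 113 in the wild-type pool, a difference of -0.61 ± 0.21 that shrank to -0.26 with normexp background correction. Hes6, a factor that opposes Hes1 in neural cells, stood at 0.11, and Hes7, known from the segmentation clock, at 0.03. In the windows described above Hey2 and Hes7 each hold 1 copy of the RBPJ core and Hes6 holds 0. Hes1, Hey1 and Heyl had no matched window. Hes2 was not among the genes whose windows were looked at by name, so no count is given for it.

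**Figure D3:**
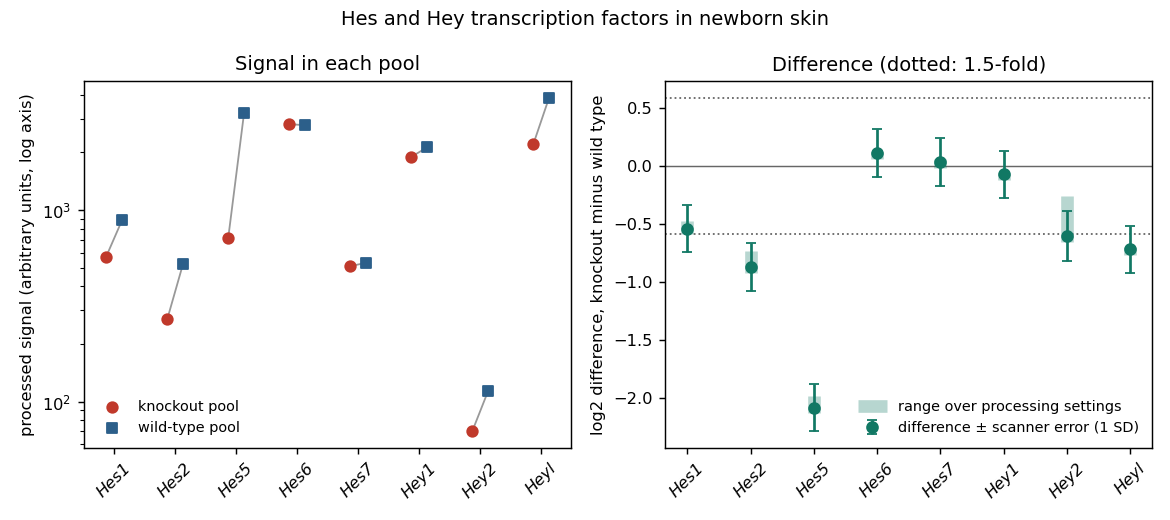
Left, unscaled signal (log axis) of the 8 measured Hes and Hey factors in the knockout pool (red circles) and the wild-type pool (blue squares), 1 array each. Right, log2 difference, knockout minus wild type, with bars of 1 SD from the scanner's error model and shaded ranges over the setting used here and 8 alternatives. Hes5, Hes2, Heyl and Hey2 lie past the dotted 1.5-fold line, with -2.08 for Hes5 and -0.61 for Hey2.

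Most of the rest of the pathway lay within 1.5-fold. Outside the members, 73 pathway genes were listed by role, among them the other Hes and Hey factors, and 71 were measured with a median of 0.05 log2. Lower by at least 1.5-fold were 3 (Hes2, Heyl and Hey2), and higher by that size were 2, Dlk2 and Ivl, beside the 4.50% and 6.74% of all genes. Dlk2, a membrane protein related to the Delta ligands that inhibits Notch, read 3043 in the knockout pool and 2133 in the wild-type pool (0.60 ± 0.20). It lies just past the size and its second probe gave 0.40. Ivl, the cornified envelope protein involucrin of differentiating keratinocytes, read 6601 in the knockout pool and 4533 in the wild-type pool, a difference of 0.63 ± 0.20.

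Genes that make, cut and read the receptor lay within 1.5-fold, apart from the ligand-like Dlk2. Notch4, the endothelial receptor outside the set, stood at 0.36. In the group of 6 other ligands and ligand-like proteins, 4 were above 0 and 2 below, with a median of 0.36. Dll3 was lowest at -0.24 and dim, at 103 in the knockout pool against 129 in the wild-type pool. Its second probe gave -0.045. Of 4 genes that help ligands to signal, the ubiquitin ligase Neurl1a was highest at 0.57 and Mib1 lowest at -0.09. The Neurl1a difference, 1.48-fold, was larger in size than that of Hes1. Among 6 genes of receptor glycosylation and maturation, the protease Furin stood at 0.17 and the fringe enzyme Rfng at -0.13. Of 8 genes of receptor cleavage, the sheddase Adam17 was highest at 0.40 and the γ-secretase subunit Aph1a lowest at -0.07. In the group of 11 transcription complex and corepressor genes, the coactivator Maml3 was highest at 0.43, while Rbpj, picked as the DNA-binding partner, was at -0.01. Over its 3 probes Maml3 ran from 0.10 to 0.43. Each of these groups had 0 members past 1.5-fold except the ligands, which hold Dlk2.

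By their brightest probes negative regulators lay within 1.5-fold too, as did the genes linked to Notch in epidermis except Ivl. Of 11 regulators of turnover, Dtx3l, a Deltex-related ubiquitin ligase, was highest at 0.54 and Nle1 lowest at -0.26. The second Dtx3l probe gave 0.31. Nrarp, a feedback inhibitor that Notch induces, stood at -0.12, and Dtx1, another induced gene, at 0.09, within its scanner error like Nrarp; both were picked after their values were seen. Of 13 genes linked to Notch in epidermis, Ivl was highest and the cyclin Ccnd1 lowest at -0.48. The probes of Trp63, picked after its values were seen, disagreed. Its brightest gave 0.30, and its 4 probes ran from -0.66 to 0.30.

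**Figure D4:**
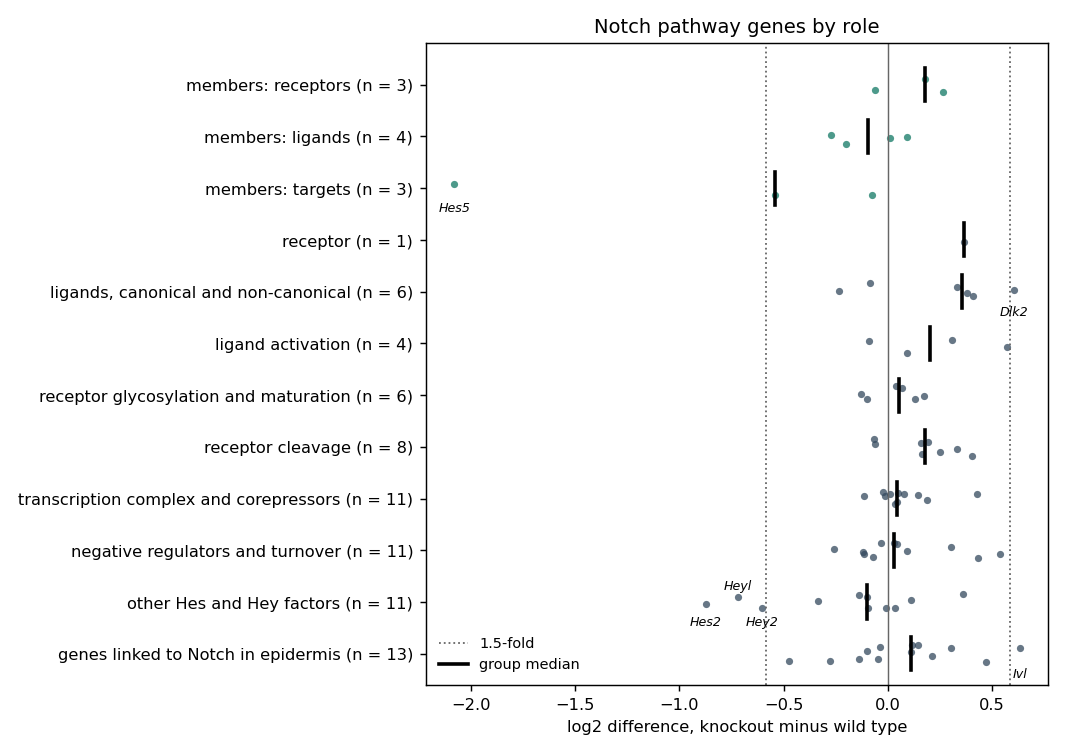
Log2 difference, knockout minus wild type, of the 10 members (green) and of 71 other measured pathway genes (grey) by role; black bars are group medians and dotted lines mark 1.5-fold. Names are printed beside the 6 genes past that size; the row named other Hes and Hey factors also holds Tle corepressors and Bhlhe factors.

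Markers of the hair follicle were lower in the knockout pool beside Hes5 and Hes1. All 26 measured genes of the hair matrix, shaft and inner root sheath were below 0, from -1.50 for the hair keratin Krt34 to -0.05 for the transcription factor Gata3. Of these, 18 were past 1.5-fold, beside 4.50% of all measured genes, and the median was -0.88. Summed over the 26 genes, the unscaled signal was 322675 in the knockout pool and 542676 in the wild-type pool, and none of them was below background. Hes5 lay below all 26 of these genes. The part of the follicle genes in the Hes5 value was not tested, and in skin fewer cells of a type and less RNA per cell cannot be told apart.

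Most endothelial and smooth muscle markers were above 0, and arterial ones were split. Heyl and Hey2 were below 0. Of 14 endothelial genes, 13 were above 0 with a median of 0.52, from Emcn, a sialomucin of capillaries (0.84), to the transcription factor Sox18 (-0.59). Past 1.5-fold were 5 higher genes, Emcn, Esam, Tie1, Cdh5 and Robo4, and 1 lower gene, Sox18, beside 6.74% and 4.50% of all measured genes. Their summed signal was 56002 in the knockout pool and 46630 in the wild-type pool. Of 7 arterial genes, which include Hey2, 4 were above 0 and 3 below, with Hey2 lowest at -0.61. Their median was 0.28, with Sox17, an arterial transcription factor, highest at 1.02. The 10 genes of pericytes and smooth muscle, where Notch3 and Heyl are expressed, ran from -0.14 for Cspg4 to 0.46 for Pdgfrb, with 0 past 1.5-fold. Notch3 at 0.18 lay near the median of that list, 0.16, and Heyl at -0.72 below all 10 of its genes.

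Most keratinocyte markers were within 1.5-fold and above 0. Of 10 basal genes, 8 were above 0 and the median was 0.25, with the hemidesmosome protein Dst highest at 0.72 and Krt5 lowest at -0.05. Of 9 measured suprabasal genes, 8 were above 0 and the median was 0.13, with Krt77 lowest at -1.0 and Ivl highest. The summed unscaled signal of the basal list was 534558 in the knockout pool and 534094 in the wild-type pool, of which Krt5 alone made up 224586 in the knockout pool and 247197 in the wild-type pool, so the sums follow the brightest probes. For the suprabasal list the sum was 937215 in the knockout pool and 927596 in the wild-type pool. The part of keratinocyte genes in the values of Notch1, Notch2, Jag1 and Jag2 was not tested.

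Other tissues of skin differed in part. Melanocyte genes were all below 0 with a median of -0.27 over 7 genes, from Mlana (-0.66) to Tyrp1 (-0.03). Skeletal muscle genes had a median of 0.39 over 9, from Pax7 (0.07) to the embryonic myosin Myh3 (0.99). Merkel cell genes had a median of 0.37 over 6, with Krt18 at 0.69 and Atoh1 at -0.44. The median of 8 Schwann cell genes was 0.15, with Cdh19 at 0.66 and Sox10 at -0.25. Fibroblast and dermal papilla genes, a joint list, had a median of 0.02 over 10, with 5 above 0 and 5 below. Pdgfra was highest at 0.49. Of its papilla genes, picked after their values were seen, Sox2 was at -0.28, Alx4 at -0.23 and Corin at -0.20. Immune lists differed widely. The median was 1.55 over 8 neutrophil genes, with Mmp8 at 2.56 and Camp at -1.0. Mmp8 was dim, at 119 in the knockout pool against 21.6 in the wild-type pool. Of the 8 neutrophil genes 6 were above 0 and 2 below. The brightest, Csf3r, was level at -0.04, and Cxcr2 was dim at 79.6 in the knockout pool against 22.4 in the wild-type pool. Csf3r and Cxcr2 were picked after their values were seen. Macrophage genes had a median of 0.26 over 8 (Cd163 at 1.02, Csf1r at -0.13). Over 5 T cell genes the median was -0.07, and 2 were lower by at least 1.5-fold, beside 4.50% of all measured genes. Cd3g was lowest at -0.87, and Ptprc, which other leukocytes also express, was highest at 0.12. Among these 14 lists, those of the hair follicle, melanocytes and T cells had medians below 0.

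**Figure D5:**
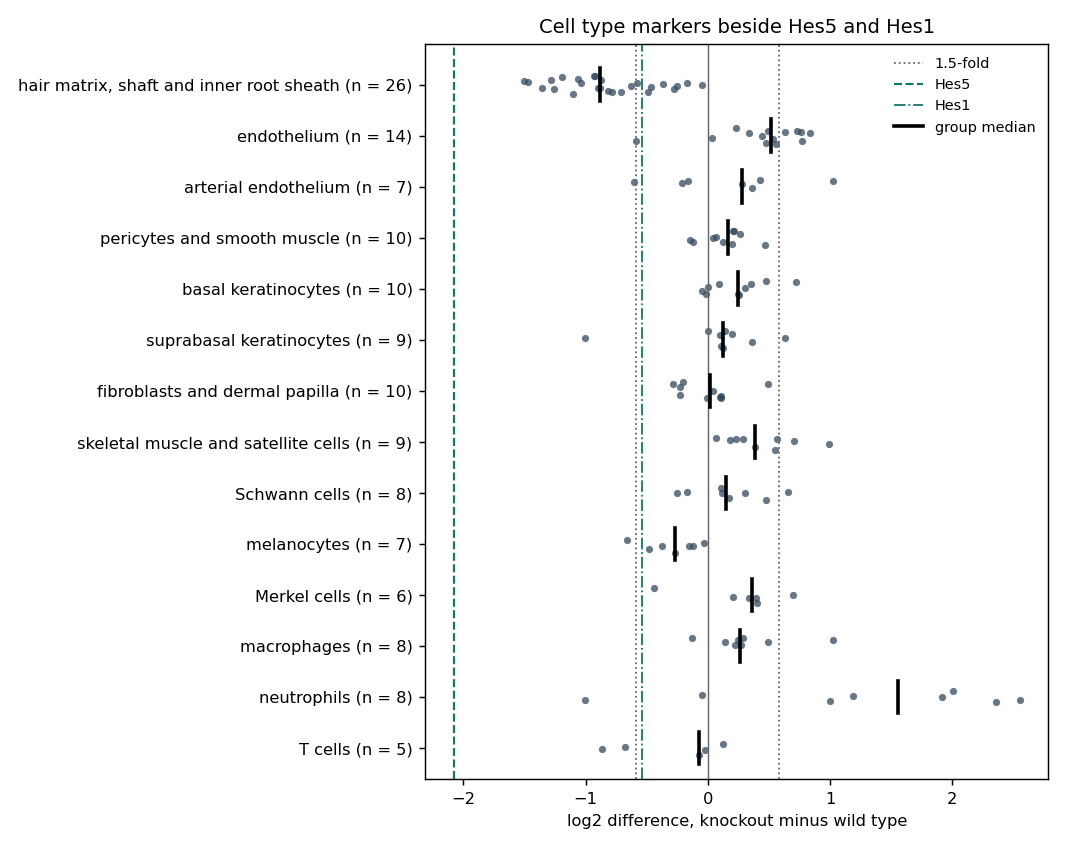
Log2 difference, knockout minus wild type, of marker genes of 14 cell types of skin (points), with group medians as black bars and dotted lines at 1.5-fold. The dashed line is Hes5 at -2.08 and the dash-dotted line Hes1 at -0.54; the hair follicle list has the lowest median, -0.88, and Hes5 lies below every marker shown.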

How the data were processed

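Linear spot intensity was taken from the deposited Agilent Feature Extraction output (version 11.5.1.1 per the submitters' processing notes), detrended within the array per the file headers. The deposited value table holds a ratio, this intensity over 2273 for the knockout pool and over 2406 for the wild-type pool, as found by setting it against the scanner files; its medians were 0.097 in the knockout pool and 0.0946 in the wild-type pool. Log2 intensities were averaged over the spots of a probe, without 234 outlier spots, and the 75th percentile over 39422 probes was subtracted. Median signals were 241 in the knockout pool and 249 in the wild-type pool, 80.8% and 78.0% of probes were well above background, and the number of arrays limits the precision.

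Of the probes, 28326 were named through accessions in a RefSeq table (GRCm38.p6), 2204 through symbols, 174 through synonyms and 1767 as in the file; 6951 were unnamed. A gene is represented by its brightest probe well above background on both arrays. Python 3.11.15 with pandas 2.3.3, and limma 3.58.1 for normexp, were used; the scaling was tested on simulated data. Members, lists and counts were chosen with earlier results of these data known. Text names all members, pathway genes past 1.5-fold or at the ends of their group, and marker genes at the ends of their list, except 1 gene not reported here; others are said to be picked after their values were seen. With 1 array per group no replicate could be left out.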

Additional observations from a re-analysis of the deposited data

How the results depend on the processing

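The scaling, the normalization, the background correction, the source of values, the handling of several probes, outlier spots and the filter on dim probes were changed 1 at a time, in 8 alternatives; those for the Hes and Hey family as a group were chosen after seeing the data. Hes5 stayed between -2.13 and -1.98 log2 and Hes1 between -0.59 and -0.47. With median scaling 2 members in place of 1 were at least 1.5-fold lower, since Hes1 crossed the size. Pathway genes at least 1.5-fold higher numbered 1 (Ivl) in place of 2 with median scaling, with normexp and with the mean over probes; with normexp Hey2 was no longer past 1.5-fold lower. The median of the Hes and Hey factors was -0.36 in place of -0.57 with normexp. Notch2 (-0.11 to 0.02) and Dll1 (-0.04 to 0.01) changed sign between settings, and Hes7 did so too (-0.02 to 0.06); Notch1 stood between 0.04 and 0.27. Marker lists, 15 with the sex-linked genes, were run under 3 alternatives only: normexp, quantile normalization and the mean over probes. The neutrophil median was 0.87 with normexp in place of 1.55, and the other 44 of 45 marker list values moved by less than the scanner error. Over all genes, 422 were at least 1.5-fold lower with normexp and 1344 with no filter on dim probes, in place of 872, and 855 and 2225 at least 1.5-fold higher, in place of 1308. The causes were not tested. No paired analysis was possible because each genotype had 1 array. Signal over background limits dim readings such as those of Dll4 and Hey2.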

Other observations

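Probes of Notch1, Jag1 and Dll4 lie on chromosome 2, as does the deleted gene, and their differences were 0.26, -0.28 and 0.09 log2; the second Notch1 probe gave -0.18. The Dll4 probe is the nearest of them. It lies at mm9 chr2:119160779-119160838, 832 kb from the brighter Pla2g4e probe at mm9 chr2:119992643-119992702. An antisense RNA of the Dll4 locus, named Gm14207 in the files and described there as Dll4-AS2, had a probe 13.8 kb away on the other side. Gm14207 read 266 in the knockout pool and 229 in the wild-type pool, a difference of 0.30 ± 0.21. Dll4 and its antisense partner were both within 1.5-fold.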
